A study of Mus musculus with 16 samples.

Results

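The 16 arrays of the series were compared by how much each gene differed between arrays of the same kind, rather than by its mean level. All 16 arrays of the deposited value table were used, 4 in each of 4 groups, so nothing was left out and no measured value chose them. The spread of a gene is its standard deviation (SD) over the 4 arrays of a group on the log2 scale.

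The control group was normal brain, wild type for Pdgfb, Trp53 and Rbpj. The PDGF+p53-/- tumours were induced in mice with floxed p53 by a PDGF-IRES-Cre retrovirus, which over-expresses PDGF-B and carries Cre recombinase. The PDGF+p53-/-RBPjk-/- tumours were induced by the same retrovirus in mice floxed for both p53 and RBPjk. The p53-/-RBPjk-/- tumours carried no retrovirus and were wild type for Pdgfb, and Hes5::CreERT2 deleted the floxed p53 and RBPjk genes in Hes5+ cells. Loss of p53 was thus shared by all tumours, and loss of RBPjk by the groups named for it. Tumours carried a Cre-inducible GFP reporter and were dissected when the mice showed symptoms. Arrays are numbered 1 to 4 in each group, with nothing in the labels on whether each came from its own animal, so every test below measures the spread between these samples, which may be technical in part.

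Trp53, the tumour suppressor p53, stops the cycle of damaged cells, and its loss allows cells with altered chromosomes to survive. Rbpj is the DNA-binding partner of the Notch receptors in neural stem cells. PDGF ligands act through the receptor Pdgfra, which marks oligodendrocyte progenitors. A dissected tumour also holds neurons, glia, vessels and blood-derived immune cells of the host, and interferon from immune cells switches on a large set of antiviral and antigen-presentation genes in many cell types. In bulk RNA, fewer cells of a type and less RNA per cell cannot be told apart.

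The values were normalized log2 intensities for 19938 genes. Array medians lay between 5.97 and 6.06. Rbpj was listed at 8.11, 8.21, 7.76 and 7.96 in control brain (replicates 1 to 4, the order used throughout) and at 8.50, 8.41, 8.19 and 8.17 in the PDGF+p53-/- tumours. It stood at 7.69, 7.88, 7.55 and 7.81 in PDGF+p53-/-RBPjk-/- tumours and at 7.76, 7.64, 7.81 and 7.93 in p53-/-RBPjk-/- tumours. Both groups labelled RBPjk-/- lay below every PDGF+p53-/- array, but overlapped control brain, and whether the probe set lies in the deleted part was not tested. Endogenous Pdgfb stayed between 5.23 and 6.31 on all arrays, and the values do not show the retroviral transcript. Neuron genes were high in control brain (mean of 26 genes 10.22 to 10.35), and oligodendrocyte progenitor genes averaged 8.46 to 9.32 in tumours against 7.29 to 7.36 in control brain. By their sex-chromosome genes, all 4 p53-/-RBPjk-/- arrays looked female, as did 1 of 4 in each of the other tumour types and 2 of 4 from control brain.

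Strongly varying genes were more numerous among PDGF+p53-/- and p53-/-RBPjk-/- tumours than among control brains or PDGF+p53-/-RBPjk-/- tumours. The median SD over all genes was close in the 4 groups, at 0.186 in control brain, 0.202 in PDGF+p53-/-, 0.188 in PDGF+p53-/-RBPjk-/- and 0.203 in p53-/-RBPjk-/- tumours. The number of genes with an SD of at least 0.5 differed more. It was 534 (2.68%) in control brain, 1153 (5.78%) in PDGF+p53-/-, 638 (3.20%) in PDGF+p53-/-RBPjk-/- and 1275 (6.39%) in p53-/-RBPjk-/- tumours. The typical gene shifted less, and not in every tumour type. A larger SD than in control brain was found for 54.98% of genes in PDGF+p53-/-, 49.98% in PDGF+p53-/-RBPjk-/- and 54.99% in p53-/-RBPjk-/- tumours. With the tumour types pooled the share was 62.2%. That pooled variance rests on 9 degrees of freedom against 3 in control brain, so an even split is not its baseline. Over genes with a mean of at least 6 the median SD was 0.178 in control brain and 0.179 in PDGF+p53-/-RBPjk-/- tumours. It was 0.221 in PDGF+p53-/- and 0.214 in p53-/-RBPjk-/- tumours.

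Each gene's variance was compared between groups by a moderated F test across all 19938 genes, with Benjamini-Hochberg adjustment and calls at an adjusted p below 0.05. With the 3 tumour types pooled, 248 genes (1.24%) had a larger spread than in control brain and 47 (0.236%) a smaller one. For PDGF+p53-/- tumours the counts were 145 larger (0.727%) and 14 smaller (0.0702%). For PDGF+p53-/-RBPjk-/- tumours they were 9 (0.0451%) and 8 (0.0401%). The p53-/-RBPjk-/- tumours had 286 (1.43%) and 25 (0.125%). These 4 comparisons share the control arrays.

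The tumour types were also compared with each other. Against PDGF+p53-/-, the PDGF+p53-/-RBPjk-/- tumours had 0 genes with larger spread (0.0%) and 4 with smaller spread (0.0201%), with 1442 genes at an unadjusted p below 0.05 in either direction by the same test. Against PDGF+p53-/-RBPjk-/-, the p53-/-RBPjk-/- tumours had 83 genes with larger (0.416%) and 5 with smaller spread (0.0251%). Against PDGF+p53-/-, they had 37 with larger (0.186%) and 8 with smaller spread (0.0401%).

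With 4 arrays a group these calls lean on the moderation, which borrows information across genes for the variance in the denominator. The direction of the pooled calls also turned with the test. A plain F test of the pooled tumours called 1 gene with larger and 5 with smaller spread than control brain, and 0 for each single tumour type. A limma fit of absolute deviations from the group mean called 5 larger and 64 smaller for the pooled tumours and 23 larger and 35 smaller for PDGF+p53-/- tumours. For PDGF+p53-/-RBPjk-/- tumours that fit gave 8 larger and 30 smaller, and for p53-/-RBPjk-/- tumours 118 larger and 59 smaller. That p53-/-RBPjk-/- tumours had more genes of larger than of smaller spread thus held in the moderated test and in this fit, while for the pooled and PDGF+p53-/- tumours it held in the moderated test and not in this fit. Without control replicate 1 the total called was 16 for PDGF+p53-/- tumours, 0 for PDGF+p53-/-RBPjk-/- tumours and 133 for p53-/-RBPjk-/- tumours. Of the 77 gene calls described below, 15 held whichever array was left out, 18 passed in the fit of absolute deviations from the mean, 8 in that from the median and 0 in the plain F test.

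The distance of each array from the mean of the other 3 in its group, as the root mean square over genes, was 0.289 ± 0.019 in control brain (SD, n = 4), 0.342 ± 0.028 in PDGF+p53-/-, 0.292 ± 0.035 in PDGF+p53-/-RBPjk-/- and 0.358 ± 0.023 in p53-/-RBPjk-/- tumours. Control brain and p53-/-RBPjk-/- tumours did not overlap, which gave the smallest p that 4 against 4 arrays allow (exact two-sided permutation test, p = 0.0286). After adjustment over the 6 pairs of groups that p was 0.0857, so none of the 6 differences passed. The 4 distances of a group are computed from the same 4 arrays and are not independent. The permutation p-values, which treat them as separate, are therefore only a guide. Over genes with a mean of at least 6 in a group, 4 of the 6 passed (exact permutation test, adjusted p = 0.0429): both PDGF+p53-/- and p53-/-RBPjk-/- tumours against control brain and against PDGF+p53-/-RBPjk-/- tumours. None passed with housekeeping centring, with every probe set or with distances from the mean of all 4 arrays (same test, lowest adjusted p = 0.0857).

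**Figure D1:**
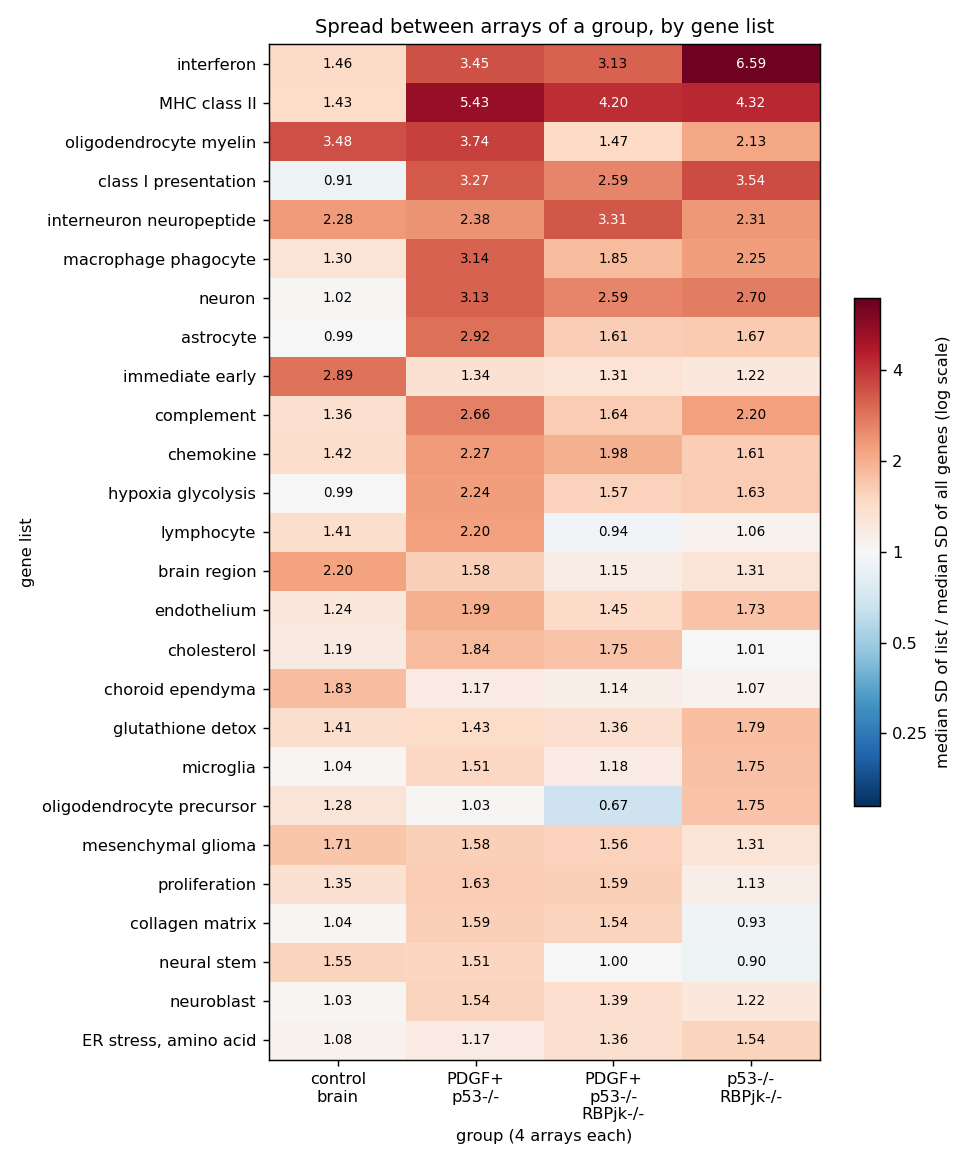
Heat map of gene lists (rows) by group (columns); each cell is the median SD of the list's genes over 4 arrays divided by the median SD of all genes in that group. Interferon genes reach 6.59 in p53-/-RBPjk-/- tumours, and myelin genes vary in control brain (3.48) as well as in PDGF+p53-/- tumours (3.74).

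Lists of genes for cell types and pathways were compared by the median SD of their members over the median SD of all genes in the same group. Of 40 lists, 7 reached a ratio of 1.5 in control brain, 21 in PDGF+p53-/-, 14 in PDGF+p53-/-RBPjk-/- and 16 in p53-/-RBPjk-/- tumours. The heat map of list spread shows that immune, neuronal and glial lists led in the tumours. Ribosomal protein genes were at the other end, with ratios of 0.57, 0.79, 0.52 and 0.56 in control, PDGF+p53-/-, PDGF+p53-/-RBPjk-/- and p53-/-RBPjk-/- samples.

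Interferon-response genes had the largest ratio of the lists in p53-/-RBPjk-/- tumours, and class II antigen-presentation genes in the other tumour types. Myelin genes (3.74) in PDGF+p53-/- and interneuron and neuropeptide genes (3.31) in PDGF+p53-/-RBPjk-/- tumours exceeded the interferon list. The interferon list had a ratio of 1.46 in control brain, 3.45 in PDGF+p53-/-, 3.13 in PDGF+p53-/-RBPjk-/- and 6.59 in p53-/-RBPjk-/- tumours. Without replicate 3 the PDGF+p53-/-RBPjk-/- ratio was 1.67, and without replicate 2 the p53-/-RBPjk-/- ratio was 3.998. Of its 22 measured members, 17 had a larger spread than control in p53-/-RBPjk-/- tumours, 1 in PDGF+p53-/- and 0 in PDGF+p53-/-RBPjk-/- tumours, where 1.43%, 0.727% and 0.0451% of all genes did. Of 8 class I presentation genes, the counts were 4, 4 and 2 for p53-/-RBPjk-/-, PDGF+p53-/- and PDGF+p53-/-RBPjk-/- tumours. No gene of either list had a smaller spread than control in any tumour type.

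Promoters of some of these genes are shown because the first 4 genes were high on shared arrays and Casp12 on 1 of those. The ones printed hold the sequence elements through which interferon acts, the ISRE, read here as TTTC, any 2 bases and TTTC, and GAS, read as TTC, any 3 bases and GAA. Capitals mark matches on either strand, and overlapping matches run together. The sequences are from RefSeq on GRCm38.p6, 5′ to 3′ on the strand of the gene.
Gbp3, chr3:142559954-142560043, plus strand, ISRE: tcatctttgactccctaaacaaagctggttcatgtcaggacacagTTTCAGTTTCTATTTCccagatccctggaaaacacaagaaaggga
Cxcl10, chr5:92349033-92349122, minus strand, ISRE: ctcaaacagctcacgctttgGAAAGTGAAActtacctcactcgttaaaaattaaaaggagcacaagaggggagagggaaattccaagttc
Ifit1, chr19:34640765-34640854, plus strand, ISRE: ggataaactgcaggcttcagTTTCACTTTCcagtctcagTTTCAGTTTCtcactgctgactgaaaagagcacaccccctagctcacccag
Psmb8, chr17:34198078-34198167, plus strand, GAS: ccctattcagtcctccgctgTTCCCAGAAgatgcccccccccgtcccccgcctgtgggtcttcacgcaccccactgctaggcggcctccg
Casp12, chr9:5345354-5345458, plus strand, GAS: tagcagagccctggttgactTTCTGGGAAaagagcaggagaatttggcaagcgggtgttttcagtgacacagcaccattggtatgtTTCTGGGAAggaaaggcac
Of 36 measured interferon, class I and class II genes, 24 had a promoter in the table. In the 250 bases before the start, 9 of their 28 promoters (32.1%) held an ISRE and 4 (14.3%) a GAS, against 2.98% and 7.02% of all 32851 promoters. The lists were drawn up as interferon and antigen-presentation genes, so these shares say nothing about spread between arrays. Only promoters with a match were printed. A match is a description of the letters and not of binding.

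Gbp4 encodes a guanylate-binding protein that interferon-gamma induces. Its log2 values were 6.25, 5.38, 5.86 and 5.41 in control brain and 7.85, 5.20, 7.26 and 10.85 in PDGF+p53-/- tumours. They were 8.91, 4.49, 5.43 and 7.03 in PDGF+p53-/-RBPjk-/- tumours and 4.56, 10.87, 5.30 and 8.99 in p53-/-RBPjk-/- tumours. In every tumour type some arrays lay inside the control range or below it while others lay far above. Highest and lowest arrays differed 1.83-fold in control brain and 79.4-fold in p53-/-RBPjk-/- tumours. Its SD of 0.41 in control brain compared with 2.33 in PDGF+p53-/- (adjusted p = 0.00772), 1.94 in PDGF+p53-/-RBPjk-/- (0.0392) and 3.004 in p53-/-RBPjk-/- tumours (0.000492).

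Psmb9 and Psmb8 are immunoproteasome subunits, which cut proteins into peptides for class I molecules. Psmb9 stood at 7.17, 7.10, 7.19 and 6.83 in control brain, and at 9.34, 7.06, 8.06 and 11.13 in PDGF+p53-/- tumours (adjusted p = 0.00386). It stood at 9.86, 6.99, 7.12 and 8.57 in PDGF+p53-/-RBPjk-/- tumours (0.0392) and at 7.01, 10.29, 7.40 and 8.63 in p53-/-RBPjk-/- tumours (0.00171). The same arrays were high as for Gbp4, replicate 4 in the first, replicate 1 in the second and replicates 2 and 4 in the third tumour type. Psmb8 followed that order with 6.24, 9.50, 6.36 and 8.47 in p53-/-RBPjk-/- tumours (adjusted p = 0.00128).

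Cxcl10, the chemokine that draws activated T cells, was 6.25, 5.86, 6.72 and 5.31 in control brain and 6.01, 12.09, 7.08 and 7.46 in p53-/-RBPjk-/- tumours (adjusted p = 0.0026). In PDGF+p53-/- tumours it was 8.71, 5.93, 7.55 and 10.76 (adjusted p = 0.027). Ifit1, which blocks translation of viral RNA, was 5.65, 8.87, 5.66 and 7.90 in p53-/-RBPjk-/- tumours (adjusted p = 0.00216). Gbp3 was 6.14, 10.39, 6.31 and 9.15 there (0.00403), so replicates 2 and 4 were again apart from replicates 1 and 3. Casp12, an inflammatory caspase, was high in replicate 2 only of that group, at 5.30, 8.91, 5.96 and 6.20 (adjusted p = 0.00185).

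Class II molecules show peptides to helper T cells and are made by antigen-presenting cells. The class II list had ratios of 1.43, 5.43, 4.20 and 4.32 in the 4 groups, with 2.44 in PDGF+p53-/- tumours without replicate 4 and 1.66 in p53-/-RBPjk-/- tumours without replicate 2. Of its 6 genes, 3 had a larger spread than control in PDGF+p53-/-, 0 in PDGF+p53-/-RBPjk-/- and 2 in p53-/-RBPjk-/- tumours. Over all genes the shares were 0.727%, 0.0451% and 1.43%. H2-Ab1 was 7.07, 5.80, 6.25 and 8.77 in PDGF+p53-/- tumours (adjusted p = 0.0358) and 5.41, 8.08, 6.04 and 5.84 in p53-/-RBPjk-/- tumours (0.0359). Tap1, the peptide transporter for class I, was 7.42, 6.61, 6.83 and 8.81 (0.0444) and 5.77, 8.81, 5.99 and 7.63 (0.00356) in these groups.

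In p53-/-RBPjk-/- tumours the calls of Gbp4, Psmb8, Ifit1 and Gbp3 held without any 1 array. Without replicate 2 the adjusted p was 0.746 for Cxcl10, 0.0745 for Psmb9, 0.0501 for Tap1, 0.635 for Casp12 and 0.959 for H2-Ab1. H2-Ab1 also fell short without replicate 1 (0.0532) or control replicate 3 (0.0682). In PDGF+p53-/- tumours the call of Psmb9 held without any 1 array. Without replicate 4 the adjusted p was 0.085 for Gbp4, 0.0815 for Psmb8, 0.207 for Cxcl10, 0.84 for Tap1 and 0.662 for H2-Ab1. Without replicate 2 it was 0.103 for Cxcl10, 0.0614 for Tap1 and 0.059 for H2-Ab1, and Tap1 was at 0.0611 without replicate 3. Without control replicate 1 it was 0.0559 for Psmb8, 0.131 for Cxcl10, 0.143 for Tap1 and 0.159 for H2-Ab1 there, and 0.159 for H2-Ab1 in p53-/-RBPjk-/- tumours. The PDGF+p53-/-RBPjk-/- calls of Gbp4 and Psmb9 were lost without replicate 1 (0.24 and 0.23), replicate 2 (0.0732 and 0.0666) or control replicate 1 (0.0619 and 0.103), 2 (0.085 and 0.0867) or 3 (0.0728 and 0.055). Other control arrays whose loss ended a PDGF+p53-/- call were replicate 2 for Cxcl10 (0.0533), replicate 3 for H2-Ab1 (0.0636) and Tap1 (0.0645) and replicate 4 for Tap1 (0.0544).

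**Figure D2:**
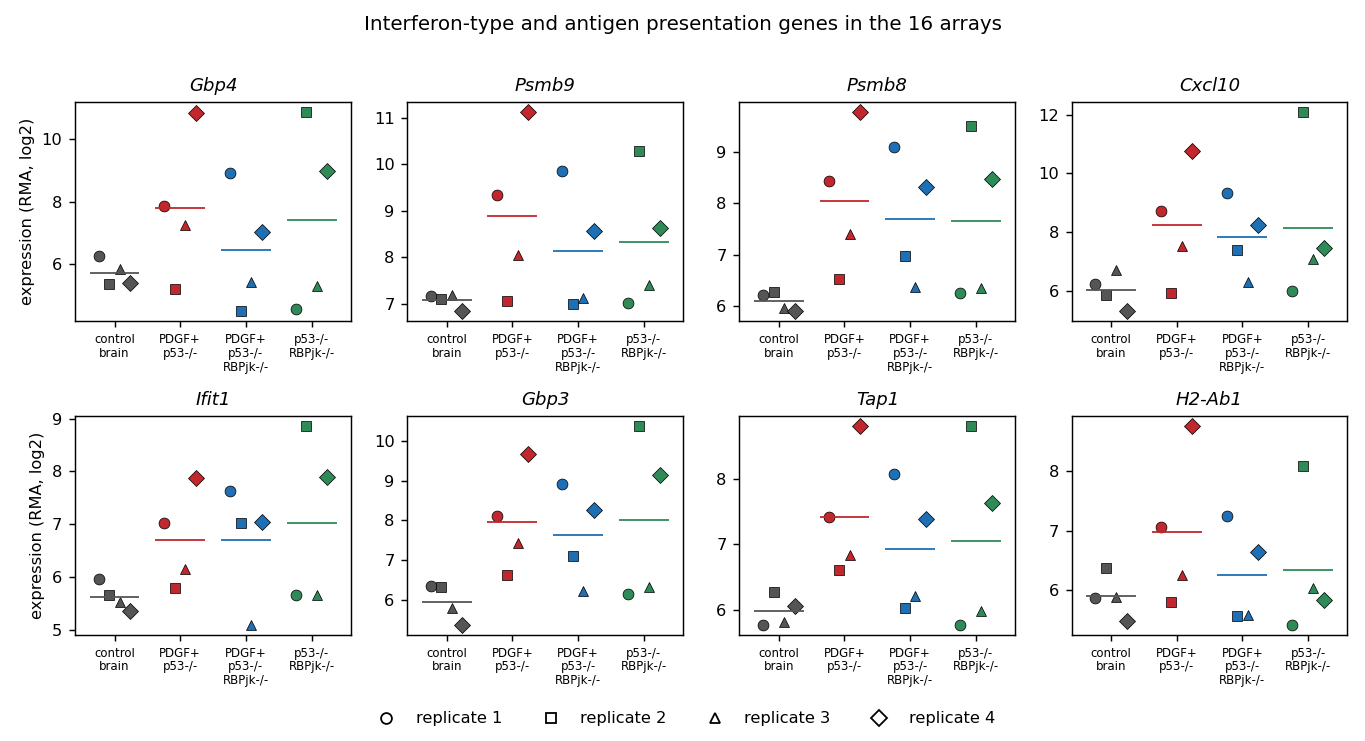
Log2 intensity of 8 interferon and antigen-presentation genes; markers are replicates 1 to 4 and horizontal lines the group mean. Gbp4 runs from 4.56 to 10.87 in p53-/-RBPjk-/- tumours and from 5.38 to 6.25 in control brain.

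The macrophage, complement and lymphocyte lists had their largest ratios in PDGF+p53-/- tumours. Complement genes had ratios of 2.66 there, 1.64 in PDGF+p53-/-RBPjk-/- and 2.20 in p53-/-RBPjk-/- tumours. The macrophage list had ratios of 1.30, 3.14, 1.85 and 2.25 in control, PDGF+p53-/-, PDGF+p53-/-RBPjk-/- and p53-/-RBPjk-/- samples. Of its 26 genes, 6 had a larger and 1 a smaller spread than control in PDGF+p53-/- tumours, 6 had a larger one in p53-/-RBPjk-/- tumours and 0 in PDGF+p53-/-RBPjk-/- tumours. Over all genes the shares of larger spread were 0.727%, 1.43% and 0.0451% in that order, and 0.0702% had a smaller one in PDGF+p53-/- tumours. The mean of the macrophage genes ran 7.32, 6.87, 6.49 and 7.73 in PDGF+p53-/- tumours against 6.41 to 6.58 in control brain, so replicate 3 lay inside the control range. The lymphocyte list reached 2.20 in PDGF+p53-/- tumours, 0.94 in PDGF+p53-/-RBPjk-/- and 1.06 in p53-/-RBPjk-/- tumours, with 3 of 15 genes called in the first.

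Lcn2 encodes lipocalin 2, an iron-binding protein of inflammation. It was 6.34, 6.41, 4.94 and 9.48 in PDGF+p53-/- tumours (adjusted p = 0.00386). Ccr2, the receptor that brings monocytes into tissue, was 6.48, 5.01, 4.80 and 7.64 (0.00917). Cd3g, a chain of the T cell receptor complex, was 5.97, 3.94, 5.24 and 6.89 (0.0139), and Cd8a, of cytotoxic T cells, was 6.24, 5.71, 6.19 and 7.76 (0.03). Replicate 4 was the highest array for each of these genes and replicate 1 came next for Ccr2, Cd3g and Cd8a. The complement genes C1s1 and Serping1 were also highest in replicate 4, at 4.27, 3.38, 3.63 and 5.91 (adjusted p = 0.0304) and 7.32, 6.24, 6.58 and 8.72 (0.0176).

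Antibody genes set replicate 1 of the same group apart. Jchain, which joins antibody units and marks plasma cells, was 7.53, 2.98, 3.62 and 3.49 in PDGF+p53-/- tumours (adjusted p = 0.027). Igkv10-96, a kappa light-chain gene, was 8.28, 3.56, 3.30 and 3.71 there (0.00376). Both also varied less in PDGF+p53-/-RBPjk-/- than in PDGF+p53-/- tumours (0.0202 and 0.00205). Without replicate 1 the adjusted p against control was 0.662 for Jchain and 1 for Igkv10-96, and that between the tumour types was 0.907 and 0.987. Jchain was at 0.0543 without control replicate 2. Replicate 1 was also the only array of its group with a female pattern of the sex-chromosome genes, and the 2 features cannot be told apart.

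In p53-/-RBPjk-/- tumours phagocyte genes were high on other arrays. Mmp12, the macrophage elastase, was 6.78, 5.83, 9.38 and 5.42 (adjusted p = 0.000492). Gpnmb, a membrane glycoprotein of phagocytes, was 9.73, 10.75, 10.57 and 7.63 (0.00259). Mmp12 was highest in replicate 3, whose interferon genes were low, and Gpnmb was lowest in replicate 4. Without replicate 3 the adjusted p of Mmp12 was 0.127, and without replicate 4 that of Gpnmb was 0.415. For the PDGF+p53-/- calls, leaving out replicate 4 gave 0.157 for Lcn2, 0.069 for Ccr2, 0.0588 for Cd3g, 0.916 for Cd8a, 0.782 for C1s1 and 0.369 for Serping1. Without control replicate 1 the values were 0.0506 for Ccr2, 0.0831 for Cd3g, 0.126 for Cd8a, 0.134 for C1s1 and 0.0948 for Serping1. Cd3g was at 0.103 without replicate 2, C1s1 at 0.0544 without control replicate 2 and Cd8a at 0.0535 without control replicate 3.

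Genes of the general neuron and astrocyte lists were more even across control brains than between tumours. The interneuron and neuropeptide list varied in control brain too, with ratios of 2.28, 2.38, 3.31 and 2.31 in the 4 groups. The neuron list had ratios of 1.02 in control brain, 3.13 in PDGF+p53-/-, 2.59 in PDGF+p53-/-RBPjk-/- and 2.70 in p53-/-RBPjk-/- tumours. Of its 26 genes, 8 had a larger spread than control in PDGF+p53-/-, 0 in PDGF+p53-/-RBPjk-/- and 5 in p53-/-RBPjk-/- tumours. Over all genes the shares were 0.727%, 0.0451% and 1.43%, so 0 of 26 lies near the share in PDGF+p53-/-RBPjk-/- tumours. The list mean was 7.35, 7.57, 8.68 and 7.42 in PDGF+p53-/-, 7.54, 7.13, 8.16 and 7.48 in PDGF+p53-/-RBPjk-/- and 6.51, 6.35, 7.40 and 6.69 in p53-/-RBPjk-/- tumours. Replicate 3 was the highest array in each tumour type and stayed below control brain in all of them. Normal tissue in the dissected piece was not measured, and its part in these differences was not tested.

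Snap25, a protein of synaptic vesicle fusion, was 12.72, 12.71, 12.63 and 12.60 in control brain and 9.28, 10.08, 11.74 and 9.52 in PDGF+p53-/- tumours (adjusted p = 0.0124). In p53-/-RBPjk-/- tumours it was 8.58, 8.11, 10.17 and 8.86 (0.0152). Sst, the peptide of somatostatin interneurons, was 11.51, 11.50, 11.43 and 11.44 in control brain and 7.72, 7.93, 9.94 and 6.98 in PDGF+p53-/- tumours (0.00881). Control arrays agreed within 0.12 for Snap25, and no tumour array reached them.

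The astrocyte list had ratios of 0.99, 2.92, 1.61 and 1.67 in the 4 groups, and 2 of 19 genes were called in PDGF+p53-/-, 0 in PDGF+p53-/-RBPjk-/- and 1 in p53-/-RBPjk-/- tumours. The shares of all genes with a larger spread were 0.727%, 0.0451% and 1.43% in that order. Mlc1, a membrane protein of astrocyte endfeet, was 7.23, 6.91, 9.22 and 7.99 in PDGF+p53-/- tumours (adjusted p = 0.0195). Slc4a4, a bicarbonate transporter, was 7.998, 7.66, 10.16 and 8.51 (0.027). Replicate 3 was again the highest.

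Myelin genes varied in control brain as well as in PDGF+p53-/- tumours. The ratio was 3.48 in control brain, 3.74 in PDGF+p53-/-, 1.47 in PDGF+p53-/-RBPjk-/- and 2.13 in p53-/-RBPjk-/- tumours, and no member was called against control. It was 1.92 without control replicate 4 and 2.24 without PDGF+p53-/- replicate 3. Mobp, a structural myelin protein, was 11.03, 11.31, 10.32 and 11.95 in control brain and 7.32, 7.59, 10.82 and 9.07 in PDGF+p53-/- tumours. Its replicate 3 in that group lay inside the control range.

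The PDGF+p53-/- calls for neuron and astrocyte genes rested on replicate 3. Without it the adjusted p was 0.672 for Snap25, 0.427 for Sst, 0.355 for Mlc1 and 0.806 for Slc4a4, and the ratio of the neuron list was 1.49. Without replicate 3 of the PDGF+p53-/-RBPjk-/- tumours their neuron ratio was 1.53. Without control replicate 1 the adjusted p in PDGF+p53-/- tumours was 0.0706 for Snap25, 0.0506 for Sst, 0.0961 for Mlc1 and 0.121 for Slc4a4. In p53-/-RBPjk-/- tumours Snap25 was at 0.699 without replicate 3 and at 0.0688 without control replicate 1.

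**Figure D3:**
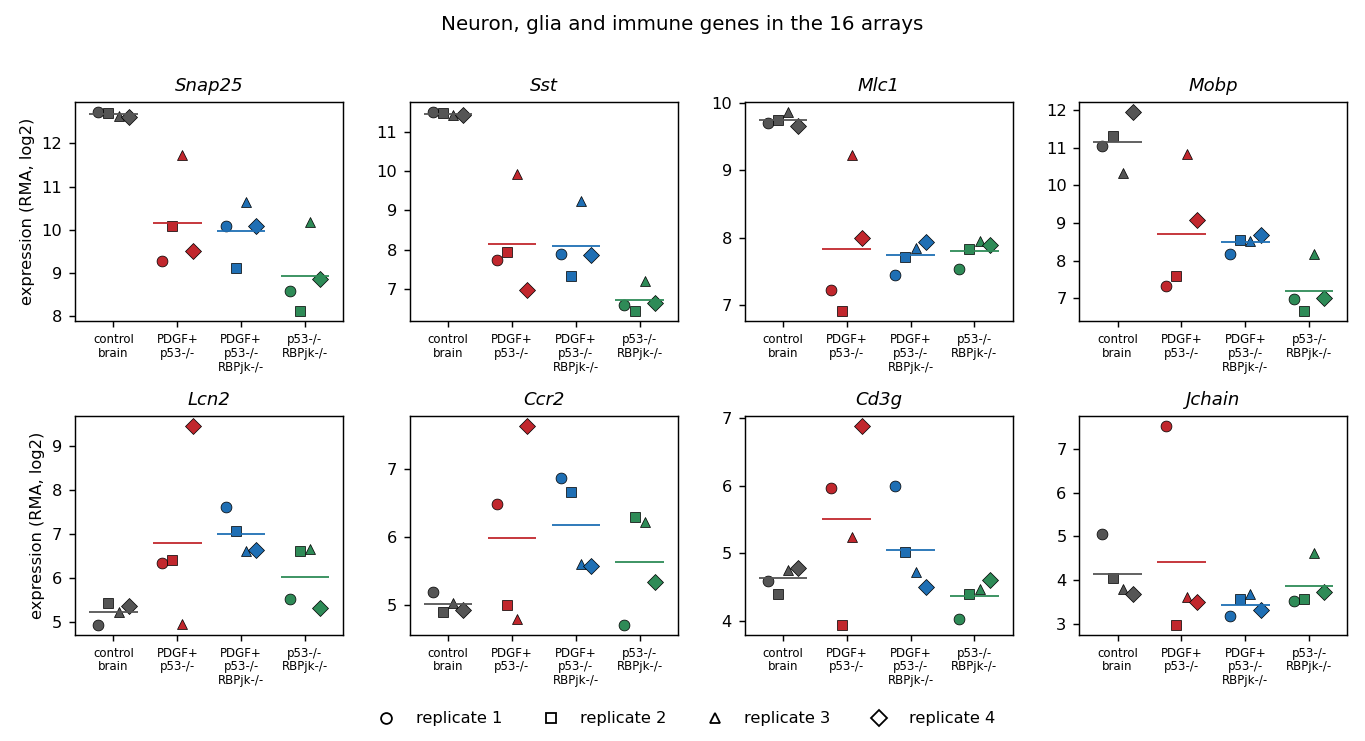
Log2 intensity of 8 genes of neurons, glia and immune cells; markers are replicates 1 to 4 and horizontal lines the group mean. Snap25 spans 12.60 to 12.72 in control brain and 9.28 to 11.74 in PDGF+p53-/- tumours, and Jchain is high in 1 PDGF+p53-/- array (7.53).

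Hypoxia genes varied most among PDGF+p53-/- tumours, and matrix and lipid genes in both groups made with the PDGF retrovirus. The hypoxia and glycolysis list had ratios of 0.99, 2.24, 1.57 and 1.63 in the 4 groups, with 3 of 24 genes called in PDGF+p53-/- tumours. In that tumour type 0.727% of all genes had a larger spread than control. Adm, a vessel-dilating peptide induced by low oxygen, was 6.46, 8.40, 6.44 and 8.38 there (adjusted p = 0.0244). Bnip3, a mitochondrial protein of the same response, was 9.26, 9.69, 8.14 and 10.11 (0.0453), and Egln3, an oxygen-sensing hydroxylase, was 7.26, 7.54, 5.70 and 7.86 (0.031). Replicates 2 and 4 were high and replicate 3 low.

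The matrix list had ratios of 1.04, 1.59, 1.54 and 0.93 in the 4 groups, and 2 of its 22 genes were called in PDGF+p53-/- tumours. Among all genes the share of larger spread there was 0.727%. Postn, which encodes periostin, was 10.12, 9.90, 8.49 and 7.77 (adjusted p = 0.0213), and Lum, which encodes lumican, was 7.43, 5.18, 4.54 and 4.17 (0.027). Neither followed the order of the hypoxia genes. Without control replicate 1 the adjusted p was 0.0961 for Adm, 0.134 for Bnip3, 0.121 for Egln3, 0.0912 for Postn and 0.13 for Lum. Without replicate 3 it was 0.729 for Bnip3 and 0.92 for Egln3, without replicate 4 it was 0.118, 0.0592 and 0.102 for Bnip3, Egln3 and Postn. Bnip3 was at 0.0739, 0.0674 and 0.0639 without control replicates 2, 3 and 4, Egln3 at 0.0517 without control replicate 3, and Lum at 0.831 without replicate 1.

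Cholesterol synthesis genes had a ratio of 1.84 in PDGF+p53-/- and 1.75 in PDGF+p53-/-RBPjk-/- tumours against 1.01 in p53-/-RBPjk-/- tumours. Each of the first 2 values came from 1 low array. The list mean was 7.92, 8.81, 8.57 and 8.53 in PDGF+p53-/- and 8.55, 8.32, 8.48 and 7.77 in PDGF+p53-/-RBPjk-/- tumours. Without replicate 1 of the former the ratio was 0.80, and without replicate 4 of the latter it was 0.51.

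Cell-cycle genes had ratios of 1.35, 1.63, 1.59 and 1.13 in the 4 groups. Of these 34 genes, 0 were called in any tumour type, where at most 1.43% of all genes had a larger spread. Their mean was 8.15 to 8.83 in PDGF+p53-/-, 8.51 to 9.02 in PDGF+p53-/-RBPjk-/- and 8.69 to 9.05 in p53-/-RBPjk-/- tumours, against 5.64 to 5.79 in control brain. Mki67, a marker of cycling cells chosen after its values were seen, stayed within 0.42, 0.54 and 0.50 in the 3 types.

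Receptor tyrosine kinase genes and their ligands set single p53-/-RBPjk-/- tumours apart. Pdgfra was 8.59, 8.52, 8.40 and 8.33 in control brain, 12.04, 12.14, 11.87 and 11.93 in PDGF+p53-/- and 11.72, 11.73, 11.64 and 11.81 in PDGF+p53-/-RBPjk-/- tumours. In p53-/-RBPjk-/- tumours it was 13.03, 12.75, 10.77 and 12.78. There 3 arrays lay above, and replicate 3 below, every array of the tumours made with the PDGF retrovirus. Its SD was 0.12, 0.12, 0.07 and 1.05 in the 4 groups, and p53-/-RBPjk-/- tumours spread more than control brain (adjusted p = 0.00781) and than PDGF+p53-/-RBPjk-/- tumours (0.0159).

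Egfr, the receptor for epidermal growth factor, was highest in replicate 3, the array with the lowest Pdgfra, while replicate 4 was high for both genes. It was 7.16, 7.09, 7.09 and 7.48 in control brain and 5.91, 5.96, 8.87 and 8.02 in p53-/-RBPjk-/- tumours (adjusted p = 0.00185), so that replicates 3 and 4 lay above control brain and replicates 1 and 2 below it. In the other tumour types it stayed between 5.79 and 6.83. Cdk6, a kinase that drives entry into the cell cycle, was 6.61, 5.86, 8.52 and 6.98 in p53-/-RBPjk-/- tumours (0.00522). Pdgfa, a ligand of Pdgfra, was high in replicate 1 only, at 10.70, 7.18, 6.95 and 7.28 (0.000492), a 13.4-fold difference between the highest and the lowest array.

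Replicate 3 of this group was low for other progenitor genes too. The oligodendrocyte progenitor list averaged 9.04, 9.01, 8.46 and 8.97, and its ratio of 1.75 became 0.84 without replicate 3. Kit, the stem cell factor receptor, is a chromosomal neighbour of Pdgfra and so not a separate case. It was 11.09, 10.63, 8.27 and 10.94, a larger spread than in PDGF+p53-/-RBPjk-/- tumours (adjusted p = 0.0292). Olig2, a transcription factor of progenitors, and Cdk4, both chosen after their values were seen, stayed within 0.22 and 0.15 in p53-/-RBPjk-/- tumours. Without replicate 3 the adjusted p against control was 1 for Pdgfra and 0.284 for Cdk6, and against PDGF+p53-/-RBPjk-/- tumours it was 1 for both Pdgfra and Kit. In the latter comparison Pdgfra also fell short without PDGF+p53-/-RBPjk-/- replicate 1 (0.0677) or 4 (0.052), and Kit without replicate 1 (0.0766), 2 (0.0713) or 4 (0.0541). Pdgfa was at 1 without replicate 1, and the Egfr call against control held without any 1 array.

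**Figure D4:**
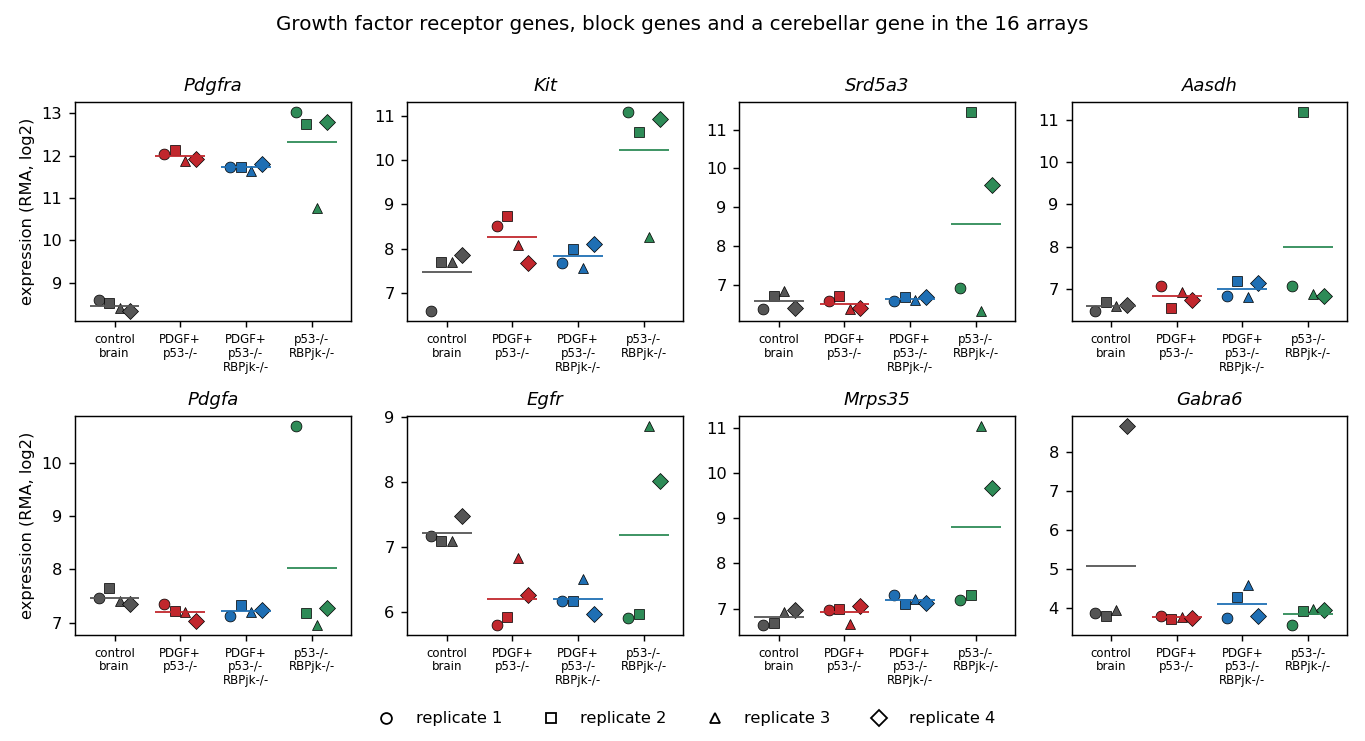
Log2 intensity of growth factor receptors, a ligand, genes next to them and Gabra6; markers are replicates 1 to 4 and horizontal lines the group mean. Pdgfra spans 10.77 to 13.03 in p53-/-RBPjk-/- tumours against 11.64 to 11.81 in PDGF+p53-/-RBPjk-/- tumours, and Gabra6 is high in 1 control array (8.69).

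Some runs of neighbouring genes on a chromosome differed together between p53-/-RBPjk-/- arrays. Genes were put in the order of GRCm38.p6, and the median deviation from the group mean was taken over runs of 15 genes with a mean of at least 6. Runs in which arrays of a group differed by at least 0.6 were joined into blocks. There were 0 blocks in control brain, 19 in PDGF+p53-/-, 6 in PDGF+p53-/-RBPjk-/- and 30 in p53-/-RBPjk-/- tumours. Of 11213 genes, the blocks held 486 (4.33%), 128 (1.14%) and 1345 (11.995%) in the 3 tumour types. Blocks held 80 of 214 placed genes (37.4%) with larger spread than control in p53-/-RBPjk-/- tumours. They held 13 of 112 (11.6%) in PDGF+p53-/- and 2 of 9 (22.2%) in PDGF+p53-/-RBPjk-/- tumours. Blocks were chosen by differences between the same arrays, so their genes tend to vary by construction. These shares therefore cannot test whether varying genes lie next to each other more often than other genes. Copy number was not measured.

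The block around Pdgfra ran from Gabrg1 to Adgrl3 with 42 genes, and the arrays differed by up to 2.99 in its widest run. Its members did not share 1 pattern. Srd5a3, a reductase of the glycosylation pathway, was 6.91, 11.46, 6.30 and 9.57 in p53-/-RBPjk-/- tumours, a 35.5-fold range (adjusted p = 0.000371). Exoc1, a subunit of the exocyst, was 8.66, 12.04, 7.96 and 11.003 (0.000371). Aasdh, an acyl-CoA synthetase family member, was high in replicate 2 alone, at 7.07, 11.19, 6.88 and 6.83 (0.000371), and so was Cep135, a centriole protein, at 7.68, 10.97, 6.97 and 6.86 (0.000628).

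Nmu, the neuropeptide neuromedin U, had a mean too low to count among the block's genes. It had the widest range of the genes named here, at 4.17, 11.59, 7.32 and 5.39 in p53-/-RBPjk-/- tumours (adjusted p = 9.44e-05), or 171-fold. Replicate 2 was thus high for all of these neighbours, replicate 4 for Srd5a3 and Exoc1, and replicates 1, 2 and 4 for Pdgfra and Kit. The calls of Srd5a3, Exoc1 and Nmu held without any 1 array, whereas Aasdh (adjusted p = 1) and Cep135 (0.669) did not pass without replicate 2.

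A further block ran from Golt1b to Resf1 with 37 genes, whose medians over the block were -1.03, -1.06, 1.86 and 0.42 relative to the group mean. Mrps35, a mitochondrial ribosomal protein, was 7.19, 7.31, 11.05 and 9.68 (adjusted p = 0.000492). Stk38l, a kinase of the Hippo pathway family, was 8.76, 8.58, 12.22 and 10.60 (0.000492). Replicates 3 and 4, the arrays with high Egfr, stood above replicates 1 and 2, and both calls held without any 1 array.

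Longer stretches differed by less. On the chromosome that carries Meg3, the median of 406 genes was 0.16, 0.07, -0.45 and 0.23 in p53-/-RBPjk-/- tumours. Replicate 3 was the low array. The largest range of any chromosome median was 0.152 in control brain, 0.526 in PDGF+p53-/-, 0.446 in PDGF+p53-/-RBPjk-/- and 0.679 in p53-/-RBPjk-/- tumours. The neighbours of Pdgfa, Fam20c and Zfp157, were high in replicate 1 alone, at 10.84, 6.93, 6.70 and 6.46 (adjusted p = 0.000371) and 12.24, 8.53, 8.55 and 8.29 (0.000371). Without replicate 1 these values became 0.975 and 1. A short block of 22 genes from Rps18 to Egfl8, which holds the class II genes, appeared in both p53-/-RBPjk-/- (range 1.197) and PDGF+p53-/-RBPjk-/- tumours (0.80), and a like one in PDGF+p53-/- tumours (0.86).

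**Figure D5:**
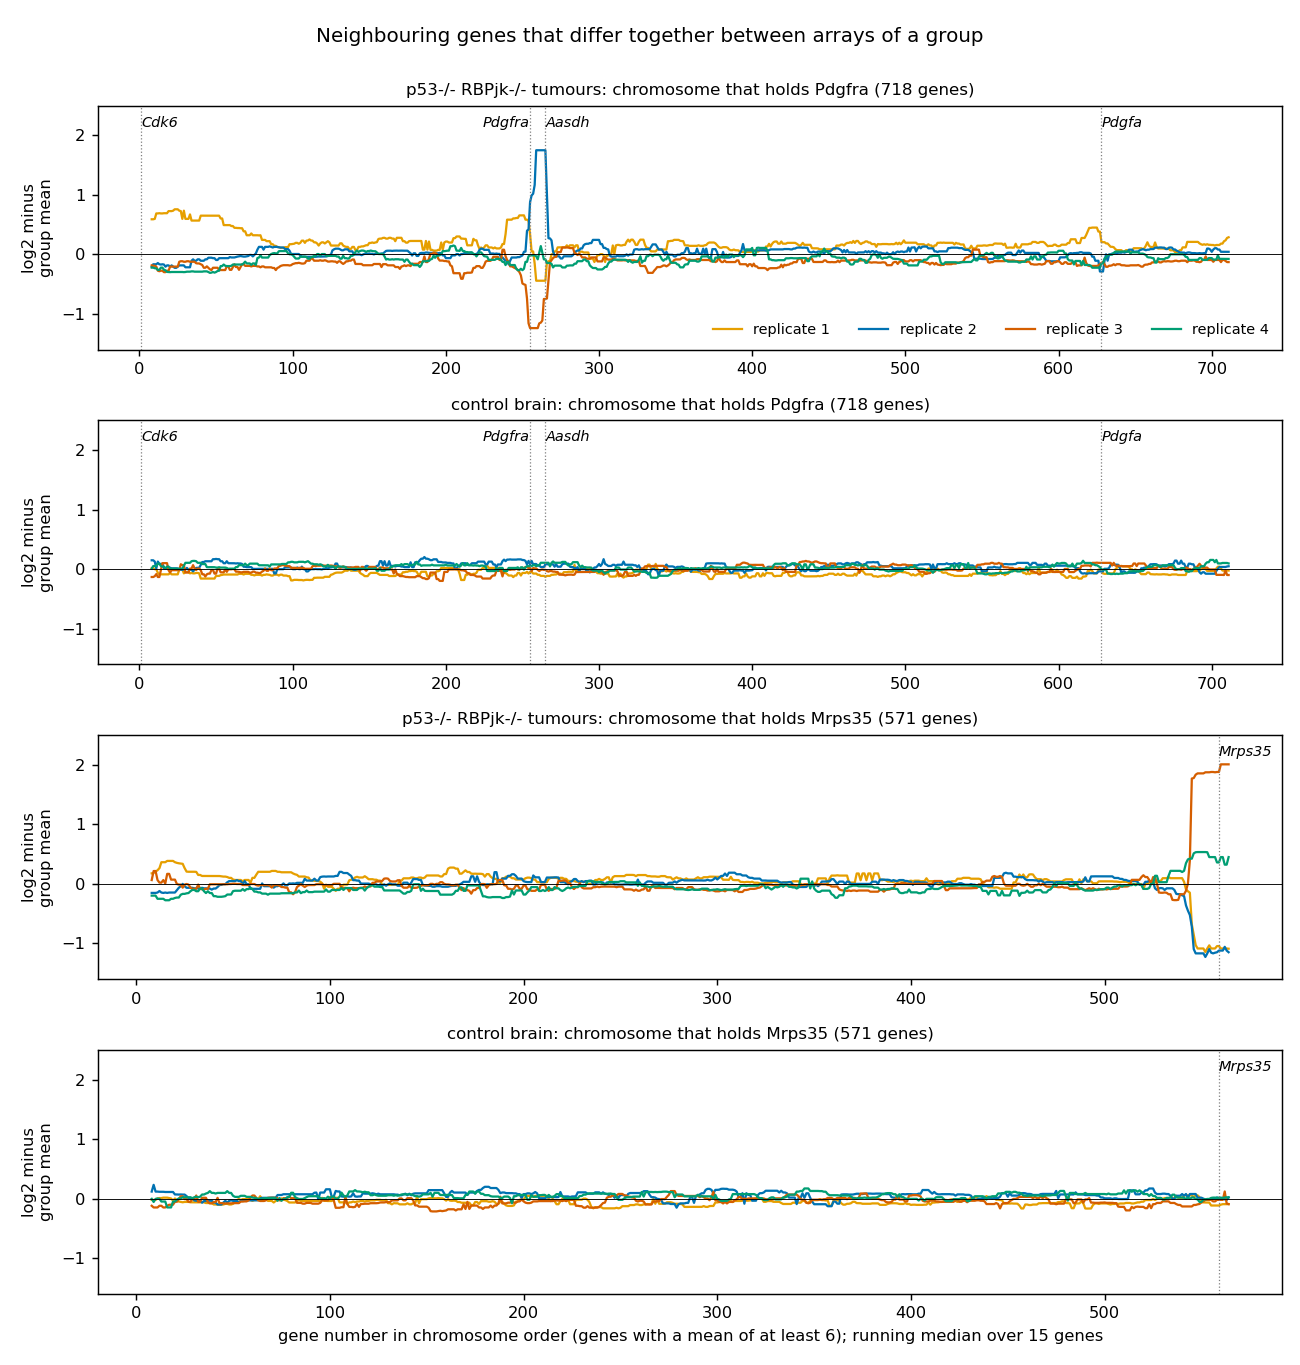
Running median over 15 neighbouring genes of the log2 deviation from the group mean, by gene number along the chromosomes that carry Pdgfra and Mrps35, for p53-/-RBPjk-/- tumours and control brain; each line is 1 array. The tumour arrays part by up to 2.99 and 3.16 in the widest runs, and control brain has 0 blocks.

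Further genes varied as strongly. Bex4, of the brain-expressed X-linked family, was 4.34, 8.25, 8.17 and 6.23 in p53-/-RBPjk-/- tumours (adjusted p = 0.00171), and Fndc3c1 was 3.77, 3.20, 8.02 and 5.09 (0.000371). Mybpc1, a myosin-binding protein, was 9.89, 5.42, 9.56 and 7.04 (0.00241), and these 3 calls held without any 1 array. Nrn1, which encodes neuritin, a protein of neurite growth, varied in every tumour type. It was 6.46, 7.53, 7.68 and 10.37 in PDGF+p53-/- (0.00575), 6.38, 5.79, 8.32 and 7.61 in PDGF+p53-/-RBPjk-/- (0.0497) and 8.24, 6.02, 6.38 and 5.87 in p53-/-RBPjk-/- tumours (0.00957). A different replicate was the high one in each type. Without PDGF+p53-/- replicate 4 its adjusted p was 0.257, without p53-/-RBPjk-/- replicate 1 it was 0.974 and without control replicate 1 0.0586 there, and the PDGF+p53-/-RBPjk-/- call was lost without any 1 of the 8 arrays (0.075 to 0.183).

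PDGF+p53-/-RBPjk-/- tumours had the fewest such genes of the tumour types. Only 9 genes had a larger spread than control, among them Gbp4, Psmb9, Psmb8 and Casp12. Casp12 was 8.17, 5.77, 5.43 and 7.15 (adjusted p = 0.0497), high in the same arrays as Gbp4. Mybpc1 was 4.85, 5.25, 5.36 and 8.99 (0.0392), and Gabrg3, a subunit of the GABA receptor, was 8.04, 9.19, 9.03 and 5.90 (0.0409). Replicate 4 was the odd array for both genes, and without it the adjusted p was 0.849 and 0.674. Casp12, Mybpc1 and Gabrg3 were also lost without replicate 1 (0.253, 0.127 and 0.127), replicate 2 (0.0666 each) or control replicate 1 (0.129, 0.103 and 0.103), 2 (0.0974, 0.0867 and 0.0867) or 3 (0.0972, 0.086 and 0.0848). Psmb8, at 9.09, 6.98, 6.37 and 8.32 (0.0409), was lost without any array of the group (0.0666 to 0.202) and without control replicates 1 to 3 (0.0867 to 0.135), and Casp12 also without replicate 3 (0.0967) or 4 (0.0699).

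Compared with PDGF+p53-/- tumours, the 4 genes of smaller spread were Igkv10-96, Jchain, Cyct and Unc13c. Unc13c, a synaptic vesicle protein, was 5.01, 6.53, 8.25 and 4.96 in PDGF+p53-/- and 5.85, 6.07, 5.92 and 5.95 in PDGF+p53-/-RBPjk-/- tumours (adjusted p = 0.0225). Cyct, the testis cytochrome c, was 3.49, 3.16, 4.55 and 7.18 in PDGF+p53-/- tumours (0.0225). Without replicate 4 of the PDGF+p53-/-RBPjk-/- tumours the values were 0.184 for Unc13c, 0.184 for Cyct and 0.181 for Jchain, and without their replicate 1 they were 0.0793, 0.0842 and 0.0522. Among PDGF+p53-/- arrays, leaving out replicate 1 gave 0.987 for Igkv10-96 and 0.907 for Jchain, replicate 3 gave 0.286 for Unc13c and replicate 4 gave 0.491 for Cyct.

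Some genes varied more in control brain than in tumours. The immediate early list had ratios of 2.89, 1.34, 1.31 and 1.22 in the 4 groups, the brain region list 2.20, 1.58, 1.15 and 1.31 and the choroid plexus list 1.83, 1.17, 1.14 and 1.07. The calls of smaller spread also held other genes, such as Il16, a cytokine gene, and Ank1, which encodes ankyrin, and in p53-/-RBPjk-/- tumours the sex genes Xist and Uty. Gabra6, a receptor subunit of cerebellar granule cells, was 3.85, 3.80, 3.95 and 8.69 in control brain and varied less in each tumour type. Ppp1r17, a Purkinje cell gene, was 3.37, 3.89, 3.42 and 6.48, and its spread was larger than in PDGF+p53-/- (adjusted p = 0.0124), PDGF+p53-/-RBPjk-/- (0.0392) and p53-/-RBPjk-/- tumours (0.00498). Control replicate 4 was the high array for both cerebellar genes, and without it those adjusted p became 0.898, 0.948 and 0.86 for Ppp1r17 and 1, 0.771 and 1 for Gabra6. In PDGF+p53-/-RBPjk-/- tumours Gabra6 and Ppp1r17 were also lost without control replicate 1 (0.0581 each) or 2 (0.0777 each) or replicate 1 (0.127 and 0.134), 2 (0.0677 and 0.0666) or 4 (0.0865 and 0.108) of the tumours, and Ppp1r17 without their replicate 3 (0.0613).

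Ttr, the transthyretin gene of the choroid plexus, was 9.91, 13.14, 9.18 and 13.26 in control brain and 6.14, 6.86, 6.22 and 6.45 in p53-/-RBPjk-/- tumours (adjusted p = 0.00775). In PDGF+p53-/- tumours it was 6.95, 11.12, 8.42 and 6.03, a range at least as wide as in control brain. Ccn1, an immediate early gene, was 6.23, 8.94, 6.55 and 8.63 in control brain, and so high in the same replicates 2 and 4. Rgs9, a striatal signalling gene, was 9.51, 10.46, 7.08 and 8.35, and its spread was larger than in PDGF+p53-/-RBPjk-/- tumours (0.0392). Its order differed from that of Ttr and Gabra6. The Ttr call against control held without any 1 array, and that of Rgs9 was lost without control replicate 1 (0.0581), 2 (0.0867) or 3 (0.131) or any PDGF+p53-/-RBPjk-/- array (0.0503 to 0.137). Ccn1 had a larger spread in control brain than in PDGF+p53-/- (0.027), PDGF+p53-/-RBPjk-/- (0.0409) and p53-/-RBPjk-/- tumours (0.0255). It was lost without control replicate 1 (0.0948, 0.103 and 0.0697), and for PDGF+p53-/- tumours without their replicate 3 (0.0589) or 4 (0.0796). For PDGF+p53-/-RBPjk-/- tumours it was lost without control replicate 2 (0.0867) or 3 (0.0624) or any tumour array (0.0648 to 0.148), and for p53-/-RBPjk-/- tumours without control replicate 2 (0.0515) or their replicate 2 (0.0745) or 3 (0.0604).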

How the data were processed

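Total RNA of 16 samples was hybridised to Affymetrix mouse gene arrays. The authors deposited normalized log2 intensities for 35556 probe sets, and the submitters' processing notes name RMA and oligo. RMA makes the arrays' distributions alike, which removes any overall shift between arrays. Depth does not apply to arrays, and 4 arrays a group limit the precision. Of the probe sets, 21789 had 1 gene symbol, and of several for a gene the one with the highest mean was used, which left 19938 genes.

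The within-group variance was compared between groups by a moderated F test (limma 3.58.1 squeezeVar, R 4.3.3), with p doubled for both directions, checked on simulated data. Array distances were compared by exact permutation tests. Gene lists were described and not tested. Genes are named where they led a group's SD, a comparison's calls, a list or a block, or belong to the glioma driver list. Olig2, Mki67, Cdk4, Rbpj, Pdgfb, Xist and Uty were chosen outside that rule after their values were seen. Members and lists were chosen with earlier results of these data known. The 24 correlations of same-numbered arrays between groups ranged from -0.12 to 0.18 and exceeded 0.1 in 7, so the numbers were not taken to pair samples. RefSeq tables of GRCm38.p6 gave names, gene order and promoters; the array's build is not given in the sources used here. 0 value columns belonged to other samples. Alternatives covered the test, filters, probe sets, centring, a replicate block, the sex pattern, each array left out and block settings; the medians over whole chromosomes were added after seeing the data.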

Additional observations from a re-analysis of the deposited data

Results flagged for a closer look

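Values were set aside here where the most extreme of 4 arrays had a gap to its neighbour, as a share of the group's range, above Dixon's 95% critical value. Of 128 groups of 4 values examined 16 passed. Chance gives about 1 in 20 for values not chosen by their spread, but many of these genes were named for a large SD, which an extreme array gives by itself, so that rate does not apply to them. In control brain they were the mean of interneuron and neuropeptide genes (0.8771), Gabra6 (0.9693), Cbln3 (0.9009) and Bpifb9b (0.9299). In PDGF+p53-/- tumours they were the mean of neuron genes (0.8310), the mean of mesenchymal glioma genes (0.8563), Igkv10-96 (0.9169) and Jchain (0.8596). In PDGF+p53-/-RBPjk-/- tumours they were Mybpc1 (0.8770) and Kdr (0.8498). In p53-/-RBPjk-/- tumours they were the mean of oligodendrocyte progenitor genes (0.8899), Aasdh (0.9443), Fam20c (0.8919), Pdgfra (0.8784), Pdgfa (0.9140) and Kit (0.8370).

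The spread differed between tumour types, by the moderated F test of the difference itself, for 4 genes between PDGF+p53-/-RBPjk-/- and PDGF+p53-/- tumours, 88 genes between p53-/-RBPjk-/- and PDGF+p53-/-RBPjk-/- tumours and 45 genes between p53-/-RBPjk-/- and PDGF+p53-/- tumours. Among probe sets with several gene symbols or none, which the comparisons of genes do not use, 17 of 13767 had a larger and 4 a smaller spread in p53-/-RBPjk-/- tumours than in control brain. For the pooled tumours 0 were larger and 8 smaller, and the other comparisons had 0 calls. An SD of at least 1 was found for 279 in control brain, 331 in PDGF+p53-/-, 387 in PDGF+p53-/-RBPjk-/- and 365 in p53-/-RBPjk-/- samples. PDGF+p53-/-RBPjk-/- tumours thus had the most, unlike among the named genes.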

How the results depend on the processing

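The number of genes called depended on the test, in the order pooled tumours, PDGF+p53-/-, PDGF+p53-/-RBPjk-/- and p53-/-RBPjk-/- against control, then PDGF+p53-/-RBPjk-/- against PDGF+p53-/-, p53-/-RBPjk-/- against PDGF+p53-/-RBPjk-/- and p53-/-RBPjk-/- against PDGF+p53-/-. The moderated F test gave 295, 159, 17, 311, 4, 88 and 45, and the plain F test 6 (1 of larger and 5 of smaller spread), 0, 0, 0, 0, 0 and 0. A limma fit of absolute deviations from the mean gave 69, 58, 38, 177, 24, 80 and 81, and from the median 25, 19, 8, 54, 0, 31 and 33. Calls of larger and smaller spread were 5 and 64 in the pooled tumours, 23 and 35 in PDGF+p53-/-, 8 and 30 in PDGF+p53-/-RBPjk-/- and 118 and 59 in p53-/-RBPjk-/- tumours for the former, and 0 and 25, 7 and 12, 1 and 7 and 36 and 18 for the latter. The balance thus turned to smaller spread in the first 3, where the moderated test gave 248 and 47, 145 and 14 and 9 and 8; the cause was not tested. Genes with group means within 1 gave 143, 35, 9, 121, 2, 31 and 4, with fewer genes tested. The sex pattern as a term left 90 calls for PDGF+p53-/-, 0 for PDGF+p53-/-RBPjk-/-, 0 for the first and 20 for the last pair of tumour types. Every probe set gave 0 for PDGF+p53-/-RBPjk-/- against control, housekeeping centring 9 there and 12 for the first pair, and a mean of at least 6 gave 0 for that pair. Leaving out 1 array gave 105 to 318, 16 to 183, 0 to 14, 133 to 300, 1 to 11, 42 to 85 and 12 to 48.

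The replicate numbers were not taken to pair the arrays: in 9 of 24 same-numbered pairs an array correlated best with its own number, among them all 3 pairs of tumour replicates 3 (correlations of 0.156 to 0.176). A replicate block gave 860, 456, 364, 532, 431, 502 and 369 calls, and turned the log2 SD ratio of Snap25 in p53-/-RBPjk-/- tumours (-0.9368); the cause was not tested.

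Leaving out 1 array in turn moved the log2 SD ratio between -3.0404 and 2.3957 for Gabra6 in PDGF+p53-/-RBPjk-/- and between -6.9853 and 1.3599 for Gabra6 in p53-/-RBPjk-/- tumours, where control replicate 4 made the difference. It ranged from -0.1860 to 2.3701 for H2-Ab1 in p53-/-RBPjk-/- tumours (replicate 2), from -0.1482 to 2.6107 for Kit between p53-/-RBPjk-/- and PDGF+p53-/-RBPjk-/- tumours (replicate 3 of the former) and from -0.6635 to 3.3278 for Mybpc1 in PDGF+p53-/-RBPjk-/- tumours (replicate 4). In PDGF+p53-/- tumours it ranged from -0.3805 to 4.4235 for Igkv10-96 and from -0.8735 to 3.4458 for Jchain (replicate 1), and with the sex pattern as a term, which fits that array alone, it was -0.6169 and -1.0412.

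Over genes with a mean of at least 6 the median SD was 0.1782, 0.2207, 0.1786 and 0.2141 in control, PDGF+p53-/-, PDGF+p53-/-RBPjk-/- and p53-/-RBPjk-/- samples. With housekeeping centring it was 0.1967, 0.2231, 0.1961 and 0.2218 in that order. The median absolute deviation gave 0.1419, 0.1519, 0.1379 and 0.1513 in the 4 groups, and the replicate block 0.1951 in control brain and 0.1909 in PDGF+p53-/- tumours. Leaving out 1 array gave 0.1679 to 0.1783, 0.1821 to 0.1998, 0.1510 to 0.1942 and 0.1856 to 0.1976. Array distances over genes with a mean of at least 6 differed by 0.0919 (PDGF+p53-/- over control), 0.1072 (p53-/-RBPjk-/- over control), -0.0853 (PDGF+p53-/-RBPjk-/- over PDGF+p53-/-) and 0.1006 (p53-/-RBPjk-/- over PDGF+p53-/-RBPjk-/-). No pair of groups passed in the other settings of the distances (exact permutation test, lowest adjusted p = 0.0857). Lists at a ratio of 1.5 numbered 12 in control brain with a mean of at least 6 and 9 in PDGF+p53-/-RBPjk-/- tumours with housekeeping centring, and 9 to 22 and 10 to 19 in PDGF+p53-/-RBPjk-/- and p53-/-RBPjk-/- tumours without 1 array. Blocks numbered 1, 40 and 50 in control, PDGF+p53-/- and p53-/-RBPjk-/- samples with windows of 11 genes, and 7, 2 and 17 in the 3 tumour types with windows of 25. A range of 0.8 left 3, 0 and 17, and with all genes control brain had 1. Dim probe sets have little signal over background, which limits what their spread can show.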
